A study of Rattus norvegicus with 28 samples.

Results

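The genes followed across all libraries of the series were Ifi27l2b, Ifi27, Stat2, Irf1, Irf7, Irf9 and Isg15, interferon-related genes that make up 7 of the 17455 gene symbols in the deposited expression table. Each was represented by the transcript chosen by its mean TPM (a transcript level normalised to length and to the library total) over the 28 libraries, and all 7 had a single transcript in the table. Ifi27l2b was named with its levels in these libraries already known, so its levels are given as a description with no test. The other genes were also chosen with earlier results of these data known, and their p-values carry that limit. The libraries came from INS-1 cells, a rat insulinoma line used as a pancreatic beta cell model. WT cells were compared with cells carrying Med14 S983A, a serine-to-alanine knock-in in a backbone subunit of Mediator, the complex that connects transcription factors with RNA polymerase II. Each genotype was profiled without treatment (CON) and after 1, 8 and 16 h of Exendin-4 at 10 nM (Ex-4, which activates the receptor for the incretin GLP-1) or 10 µM forskolin (FSK, which acts on adenylyl cyclase directly), which gave 14 groups of 2 libraries. All cells were moved to serum-free medium before treatment, and CON had no 8 h or 16 h counterpart of its own, so time in culture and treatment cannot be told apart in these contrasts. The knock-in lines were grown from single sorted clones, and the labels do not say which line a library came from, so the genotype and the history of a clone cannot be told apart either.

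Interferons bind paired cell-surface receptors whose Janus kinases phosphorylate STAT proteins. Phosphorylated STAT2 joins IRF9 in the ISGF3 complex, which binds interferon-stimulated response elements, while other STAT complexes act through gamma-activated sequences. IRF1 and IRF7 are transcription factors that are themselves interferon targets, and IRF7 drives the interferon genes in a positive loop. Isg15 encodes a ubiquitin-like protein that is conjugated to other proteins, and the Ifi27 family encodes small hydrophobic membrane proteins of interferon-treated cells. In pancreatic islets this pathway is known for its activity in autoimmune diabetes and in the viral response of beta cells.

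The libraries held 42183630 to 91794163 fragments with a median of 50051527, the highest in replicate 2 of Med14 S983A at 8 h FSK. Of 8 beta cell markers, 7 were in the table and summed to 50396 to 88815 TPM per library, whereas 6 leukocyte markers summed to at most 1.79 TPM, 5 fibroblast markers to at most 4.07 TPM and 4 endothelial markers to at most 0.481 TPM. Med14 mRNA stood at 17.2 to 25.9 TPM in the 14 WT libraries and at 19.6 to 30.03 TPM in the 14 Med14 S983A libraries, and gene-level TPM cannot read a single-codon change. As bulk RNA was measured, fewer cells with a transcript and less transcript per cell cannot be told apart. The labels do not state that the 2 libraries of a group came from separate cultures, so the p-values measure the spread between these libraries only.

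Ifi27l2b and Ifi27 are neighbours. In rn6, the build of the files, Ifi27l2b (NM_206846) occupies chr6:127336305-127337791 on the minus strand and Ifi27 (NM_203410) occupies chr6:127327959-127334431 on the plus strand, so that their 3′ ends face each other across 1873 bases. Stat2 (NM_001011905) lies at chr7:2691369-2707151 (+), Irf1 (NM_012591) at chr10:39109530-39116532 (+), Irf7 (NM_001033691) at chr1:214249388-214252455 (-), Irf9 (NM_001012041) at chr15:34282936-34288139 (+) and Isg15 (NM_001106700) at chr5:173624902-173626189 (-). RefSeq promoter sequences on the GRCr8 assembly were matched for 5 of the 7 genes, Ifi27, Stat2, Irf1, Irf7 and Irf9. The 250 bases before the annotated start are shown for Ifi27, Irf1, Irf7 and Irf9, the members called lower in treated cells. Capitals mark matches to GAAANNGAAA or its reverse complement TTTCNNTTTC (ISRE-like) and to TTCNNNGAA (GAS-like, its own reverse complement).
Ifi27, chr6:128355062-128355311 (+): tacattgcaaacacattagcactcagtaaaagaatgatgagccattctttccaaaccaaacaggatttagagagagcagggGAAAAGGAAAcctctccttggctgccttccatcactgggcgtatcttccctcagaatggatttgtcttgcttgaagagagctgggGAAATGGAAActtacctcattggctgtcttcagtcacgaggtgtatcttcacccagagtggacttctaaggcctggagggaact
Irf1, chr10:38417685-38417934 (+): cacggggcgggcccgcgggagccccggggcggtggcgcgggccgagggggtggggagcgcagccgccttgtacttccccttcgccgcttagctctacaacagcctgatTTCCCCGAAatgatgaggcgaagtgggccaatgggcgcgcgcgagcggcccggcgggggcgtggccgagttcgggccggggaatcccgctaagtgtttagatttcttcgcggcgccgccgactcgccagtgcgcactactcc
Irf7, chr1:205800024-205800273 (-): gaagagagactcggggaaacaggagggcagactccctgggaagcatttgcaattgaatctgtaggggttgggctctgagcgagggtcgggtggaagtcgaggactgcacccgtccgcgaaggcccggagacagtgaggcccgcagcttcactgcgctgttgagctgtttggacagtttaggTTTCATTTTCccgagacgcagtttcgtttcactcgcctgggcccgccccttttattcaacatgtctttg
Irf9, chr15:33065586-33065835 (+): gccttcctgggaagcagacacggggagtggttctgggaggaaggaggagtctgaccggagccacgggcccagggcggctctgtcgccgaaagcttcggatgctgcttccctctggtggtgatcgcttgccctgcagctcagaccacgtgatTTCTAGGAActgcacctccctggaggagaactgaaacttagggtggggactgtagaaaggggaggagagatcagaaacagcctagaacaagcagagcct

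The Ifi27 promoter held 2 ISRE-like matches, with first bases 169 and 84 bases before the start, and the Irf7 promoter held 1, with its first base 69 bases before the start. Irf1 and Irf9 each held 1 GAS-like match, with first bases 142 and 99 bases before the start, and no ISRE-like match. Over the 300 bases of each of 33469 RefSeq promoters, from 250 before to 50 after the start, 3.92% held an ISRE-like match and 8.87% a GAS-like match on either strand. The full cAMP response element TGACGTCA was in 1.83% of promoters and in none of the 5 members searched. Its half-site TGACG or CGTCA, which every full element also contains, was in 21.2% of promoters and, of the 5 members, in Stat2 alone. These are letter matches in a fixed window, and no binding was measured.

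Ifi27l2b had the widest range in TPM of the 7 genes, from 3.47 to 502 TPM between single libraries. In WT CON its level was 6.61 and 6.31 TPM in the 2 libraries. After 1 h it was 7.87 and 4.67 TPM with Ex-4 and 5.74 and 6.05 TPM with FSK. These early values spanned the CON level for Ex-4, whose 2 libraries formed the widest pair of Ifi27l2b at a ratio of 1.69, and lay below it for FSK by less than 1 TPM.

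In WT cells at 8 h, the level was 11.3 and 10.4 TPM with Ex-4 and 23.98 and 24.9 TPM with FSK. At 16 h it was 11.2 and 10.2 TPM with Ex-4 and 124 and 127 TPM with FSK. All 4 of these groups lay above both WT CON libraries. The means were 1.68-fold of CON at 8 h Ex-4, 1.66-fold at 16 h Ex-4, 3.79-fold at 8 h FSK and 19.4-fold at 16 h FSK.

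In Med14 S983A CON the level was 3.78 and 5.45 TPM, below both WT CON libraries. After 1 h it was 4.25 and 3.47 TPM with Ex-4 and 4.94 and 3.51 TPM with FSK, overlapping CON in both cases. At 8 h the values were 14.2 and 13.9 TPM with Ex-4 and 65.2 and 66.1 TPM with FSK. At 16 h they were 69.2 and 70.1 TPM with Ex-4 and 471 and 502 TPM with FSK. The 4 late groups again lay above both CON libraries, and their means were 3.04-fold (8 h Ex-4), 15.1-fold (16 h Ex-4), 14.2-fold (8 h FSK) and 105-fold (16 h FSK) of CON.

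**Figure D1:**
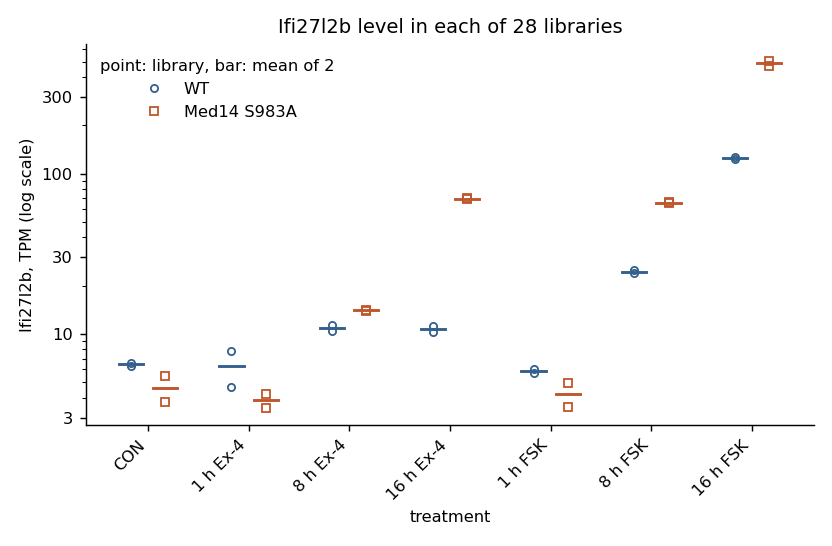
Ifi27l2b level (TPM, log axis) in each of the 28 libraries by treatment, with circles for WT, squares for Med14 S983A and a bar at the mean of the 2 libraries. The highest group is Med14 S983A at 16 h FSK (471 and 502 TPM), and the 1 h groups stay near CON.

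The order of the 14 group means ran from Med14 S983A 16 h FSK (487 ± 22.03 TPM, SD, n = 2) and WT 16 h FSK (125 ± 2.21) through Med14 S983A 16 h Ex-4 (69.7 ± 0.61), Med14 S983A 8 h FSK (65.7 ± 0.67), WT 8 h FSK (24.4 ± 0.65), Med14 S983A 8 h Ex-4 (14.05 ± 0.20), WT 8 h Ex-4 (10.8 ± 0.68) and WT 16 h Ex-4 (10.7 ± 0.71) to the CON and 1 h groups. WT 8 h and 16 h Ex-4 overlapped and did not differ beyond their spread. The same held for WT CON against WT 1 h Ex-4, WT 1 h Ex-4 against WT 1 h FSK, Med14 S983A CON against Med14 S983A 1 h FSK, and the latter against Med14 S983A 1 h Ex-4, the lowest group. The other 8 neighbouring pairs had no overlap.

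Between genotypes, the Ifi27l2b mean in Med14 S983A was 0.715-fold of WT at CON, 1.296-fold at 8 h Ex-4, 6.50-fold at 16 h Ex-4, 2.69-fold at 8 h FSK and 3.88-fold at 16 h FSK. On the log2(TPM + 1) scale, the change from CON was 0.65 in WT and 3.67 in Med14 S983A at 16 h Ex-4, and 4.08 in WT and 6.46 in Med14 S983A at 16 h FSK. The values rested on 41.0 to 7039.5 recovered fragments per library. Scaling on the ERCC spike-in moved the Med14 S983A 16 h FSK mean from 487 to 596 TPM.

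No gene beside Ifi27l2b on chromosome 6 had a change from CON near its 19.4-fold (WT) and 105-fold (Med14 S983A) at 16 h FSK. The nearest 3 tested genes on each side were Otub2, Ddx24 and Ifi27 on one and Ppp4r4, Serpina6 and Serpina1 on the other. Over the 12 treated groups, the group mean relative to CON of the same genotype ranged from 0.826-fold to 1.28-fold for Ddx24, an RNA helicase gene, and from 0.59-fold to 0.963-fold for Ifi27. The highest value of any of the 6 was 1.89-fold (Serpina6) and the lowest 0.421-fold (also Serpina6). Between genotypes the locus was not flat. Serpina1 had a mean of 37.5 TPM in WT CON and 2.01 TPM in Med14 S983A CON, and Serpina6 of 3.14 and 1.19 TPM.

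Ifi27 had the highest mean level of the 7 genes and was lower in Med14 S983A. In WT CON the 2 libraries held 613 and 605 TPM, and in Med14 S983A CON they held 375 and 395 TPM. The groups did not overlap, and the difference was -0.66 on the log2(TPM + 1) scale (SE 0.05, limma adjusted p = 3.47e-11). Under WT treatment Ifi27 was 460 to 585 TPM in group means, below both CON libraries in each of the 6 treated groups, and passed no test at the 1.5-fold minimum. How many of all genes lay below CON in this way was not counted, and their median on TPM was -0.06 to -0.34 in these contrasts.

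In Med14 S983A, Ifi27 fell after the late treatments. It held 258 and 252 TPM at 16 h Ex-4 (-0.59, SE 0.05, adjusted p = 5.47e-10), 225 and 229 TPM at 8 h FSK (-0.76, SE 0.05, adjusted p = 7.96e-13) and 238 and 254 TPM at 16 h FSK (-0.65, SE 0.05, adjusted p = 2.84e-11). At 8 h Ex-4 it held 286 and 292 TPM (-0.41, not called for its size). All 4 Ifi27 calls ended at the 1.5-fold minimum when each library was centred on its median (-0.42 to -0.57) and with edgeR (-0.49 to -0.57), and the 16 h Ex-4 call ended also without replicate 2 of Med14 S983A CON (-0.55) or replicate 2 of its own group (-0.57). In WT at 8 and 16 h the Ifi27 difference from CON was -0.20 to -0.40 on TPM and depended on the scaling. With median centring it was -0.02 at 16 h Ex-4 and -0.01 at 8 h FSK, and on the ERCC scale it was 0.13 at 16 h Ex-4, with the sign reversed, and -0.01 at 16 h FSK.

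Irf1, a transcription factor that binds interferon-responsive promoters, was lower within 1 h of FSK. In WT it went from 31.7 and 31.3 TPM at CON to 13.7 and 14.3 TPM at 1 h FSK (-1.11, SE 0.06, adjusted p = 9.52e-15). It held 17.5 and 17.1 TPM at 8 h FSK (-0.83, SE 0.06, adjusted p = 3.95e-13) and 17.5 TPM in both libraries at 16 h FSK (-0.81, SE 0.06, adjusted p = 8.89e-13). With Ex-4, the WT values were 21.3 and 20.2 TPM at 1 h, 22.8 and 22.3 TPM at 8 h, and 21.6 and 23.7 TPM at 16 h. All 3 Ex-4 groups lay below CON, by -0.46 to -0.58, short of the 1.5-fold minimum.

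In Med14 S983A, Irf1 was 30.6 and 30.5 TPM at CON, which differed from WT by -0.04 and was not called. It fell to 17.7 and 16.4 TPM at 1 h Ex-4 (-0.81, SE 0.06, adjusted p = 1.60e-11) and to 9.29 and 9.26 TPM at 1 h FSK (-1.62, SE 0.06, adjusted p = 2.73e-18). At 8 h it held 25.002 and 25.5 TPM with Ex-4 and 14.2 and 13.7 TPM with FSK, and the FSK fall passed the test (-1.08, SE 0.06, adjusted p = 1.70e-15). By 16 h it was 30.6 and 28.9 TPM with Ex-4 and 22.2 and 23.98 TPM with FSK, neither of which was called. Irf1 was higher with Ex-4 than with FSK in this genotype at 1 h (0.81, SE 0.06, adjusted p = 2.06e-11) and at 8 h (0.81, SE 0.06, adjusted p = 8.58e-13). With median centring the falls at 8 h FSK and 16 h FSK in WT (-0.44 and -0.57) and the 8 h difference between agents (0.51) ended, and the WT 16 h FSK fall ended also with ERCC scaling (-0.43). The WT 8 h FSK fall ended as well with edgeR (-0.55) and DESeq2 (-0.52), and the 8 h difference between agents with DESeq2 (0.57).

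Irf9, the DNA-binding partner of STAT2, fell together with Irf1 at 1 h. WT libraries held 9.92 and 9.39 TPM at CON, 5.43 and 5.58 TPM at 1 h FSK (-0.71, SE 0.11, adjusted p = 5.28e-06) and 5.58 and 4.58 TPM at 8 h FSK (-0.81, SE 0.11, adjusted p = 1.37e-07). Med14 S983A libraries held 8.21 and 9.24 TPM at CON and 4.29 and 3.52 TPM at 1 h FSK (-0.99, SE 0.11, adjusted p = 2.11e-08). In WT at 1 h Ex-4 Irf9 held 5.81 and 7.12 TPM (-0.52), short of the 1.5-fold minimum. The interaction at 1 h Ex-4 was -0.08 and was not called. Irf9 was called in Med14 S983A also at 1 h Ex-4 (-0.60) and at 8 h FSK (-0.60). Both of these values sat just past the fold minimum, and each ended when replicate 2 of Med14 S983A CON (to -0.52 for both) or replicate 2 of the treated group (to -0.56 and -0.47) was left out. At 16 h Irf9 was 6.26 to 8.30 TPM in all 8 treated libraries of both genotypes, with no call. With median centring the Irf9 call in Med14 S983A at 1 h FSK held (-0.84) and the other 4 ended (-0.26 to -0.58). The 8 h FSK calls ended also with DESeq2 (-0.58 in WT and -0.39 in Med14 S983A), and that of Med14 S983A with edgeR (-0.43). Every treated group of Irf9 lay below both CON libraries of its genotype. The share of all genes that did so was not counted, and their median on TPM was below 0 in each contrast (-0.03 to -0.34).

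Stat2, which joins Irf9 in ISGF3, passed the test in none of the 25 contrasts. It held 15.5 and 14.5 TPM in WT CON and 21.7 and 21.2 TPM in Med14 S983A CON, groups that did not overlap, with a difference of 0.49 that missed the fold minimum. With ERCC scaling (0.68), edgeR (0.61) and DESeq2 (0.59) that difference was called as higher in Med14 S983A. The lowest Stat2 values were 10.4 and 10.1 TPM in WT at 1 h FSK (-0.51). The largest fall was in Med14 S983A at 8 h FSK, to 14.3 and 14.9 TPM (-0.53). It was called lower with ERCC scaling (-0.61), where the median of all genes was -0.36.

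Irf7, the amplifier of the interferon genes, was called lower in 8 h and 16 h groups and in no 1 h group. WT libraries held 10.6 and 9.50 TPM at CON, 6.31 and 6.32 TPM at 8 h Ex-4 (-0.60, SE 0.09, adjusted p = 5.31e-06), 4.53 and 3.77 TPM at 8 h FSK (-1.11, SE 0.09, adjusted p = 3.23e-11) and 4.12 and 5.08 TPM at 16 h FSK (-0.99, SE 0.09, adjusted p = 3.76e-10). At 16 h Ex-4 they held 6.50 and 6.29 TPM (-0.579, limma adjusted p = 5.89e-06), just short of the 1.5-fold minimum. With a pseudocount of 0.1 TPM that fall was called (-0.64). At 1 h they held 10.4 and 8.40 TPM with Ex-4 and 9.63 and 9.55 TPM with FSK, overlapping CON with both agents.

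Irf7 was already lower in Med14 S983A CON, at 6.204 and 6.39 TPM (-0.60 against WT CON, SE 0.09, adjusted p = 3.01e-06). It fell further to 3.40 and 3.43 TPM at 16 h Ex-4 (-0.72, SE 0.09, adjusted p = 2.31e-07), 3.44 and 3.07 TPM at 8 h FSK (-0.78, SE 0.09, adjusted p = 1.95e-08) and 2.57 and 2.73 TPM at 16 h FSK (-0.999, SE 0.09, adjusted p = 2.97e-10). At 8 h Ex-4 it held 5.002 and 4.89 TPM (-0.29, not called for its size). Without replicate 1 of WT CON, the WT 8 h Ex-4 call (-0.52) and the genotype call (-0.53) ended, and the genotype call ended also without replicate 1 of Med14 S983A CON (-0.58). The WT 8 h Ex-4 call ended as well with median centring (-0.47), ERCC scaling (-0.46), edgeR (-0.58) and DESeq2 (-0.56), and the genotype call with centring (-0.51), ERCC scaling (-0.41) and edgeR (-0.58). Irf7 calls in both genotypes at 16 h FSK, WT 8 h FSK and Med14 S983A 16 h Ex-4 held under median centring (-0.67 to -0.85), ERCC scaling, edgeR and DESeq2, whereas the Med14 S983A 8 h FSK call ended with centring (-0.44).

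Isg15 was at the limit of detection. Its 28 libraries ran from 0 to 0.825 TPM, on 0 to 16 fragments each, with a mean of 0.378 TPM that left it under the minimum of 1 TPM for testing. Without that minimum, limma gave an unadjusted p under 0.05 in 0 of 25 contrasts, and the smallest adjusted p was 0.128. No difference in Isg15 was called, no library rose above 0.825 TPM, and counts this low leave small changes unresolved.

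Replicate libraries of the tested members lay close together. The widest pair by ratio was 537 and 460 TPM for Ifi27 (WT 8 h Ex-4), 15.5 and 14.5 TPM for Stat2 (WT CON), 21.6 and 23.7 TPM for Irf1 (WT 16 h Ex-4), 10.4 and 8.40 TPM for Irf7 (WT 1 h Ex-4) and 6.01 and 4.88 TPM for Irf9 (Med14 S983A 8 h FSK).

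**Figure D2:**
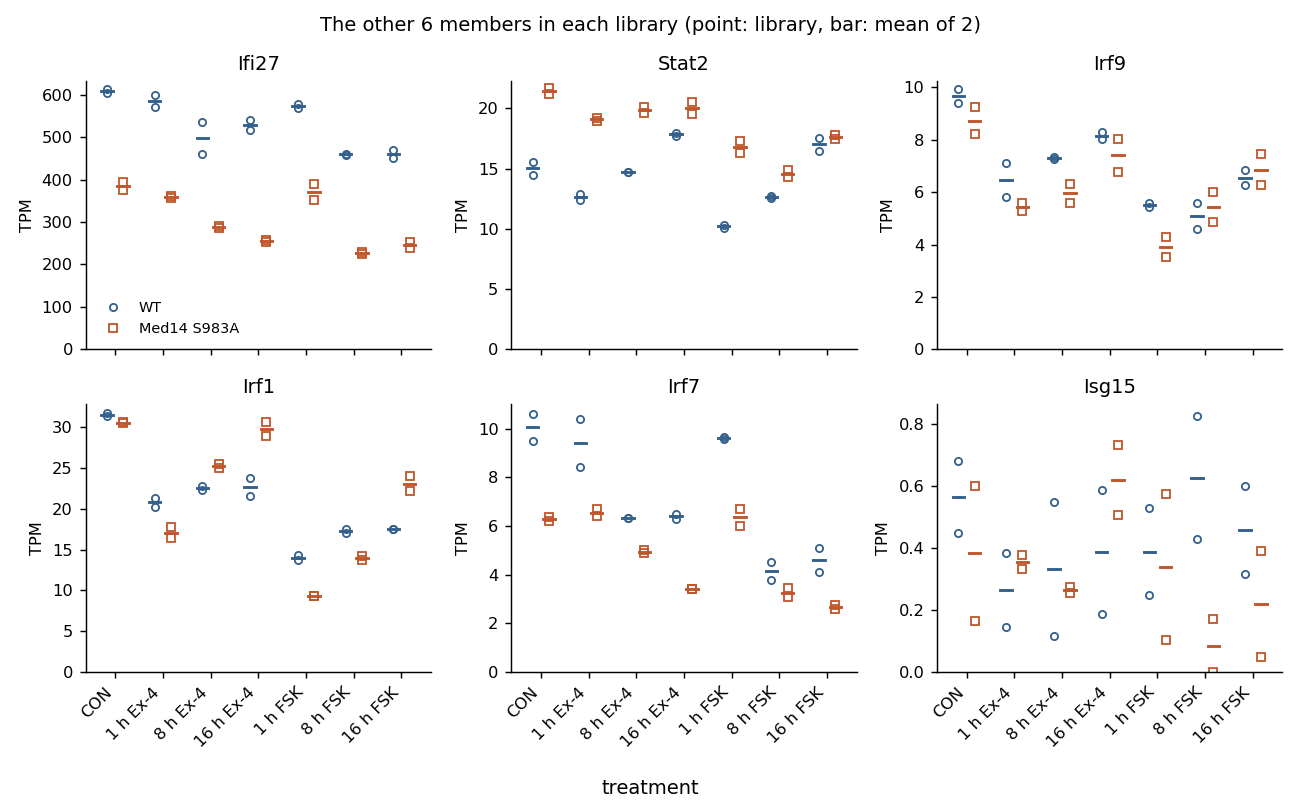
Level (TPM, linear axes from 0) of Ifi27, Stat2, Irf9, Irf1, Irf7 and Isg15 in each library by treatment, with circles for WT, squares for Med14 S983A and a bar at the mean of 2 libraries. Irf1 and Irf9 are low at 1 h FSK, Irf7 and Ifi27 are low at 8 and 16 h FSK, and Isg15 stays below 1 TPM in every library.

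The 5 genes tested were Ifi27, Stat2, Irf1, Irf7 and Irf9. In the 12 contrasts with CON they gave 20 calls of 60, all lower, and 56 of the 60 differences were below 0. The median of all genes on TPM was below 0 in each of these contrasts too (-0.03 to -0.34), so most genes also lay below 0. In WT with Ex-4, 0 of 5 were called lower at 1 h, 1 at 8 h (Irf7) and 0 at 16 h, beside 1.12%, 5.99% and 8.28% of all 10275 tested genes. At 1 h and 16 h in WT with Ex-4, 3 and 4 of the 5 had an unadjusted limma p under 0.05. Their adjusted p was under 0.05 as well, so they missed only the 1.5-fold minimum, and edgeR and DESeq2 also called 0. Of the 4 at 16 h, Stat2 was higher (0.24) and the others were lower. In WT with FSK the counts were 2, 3 and 2, beside 4.94%, 34.8% and 24.1%. In Med14 S983A they were 2, 0 and 2 with Ex-4, beside 1%, 3.09% and 7.15%, and 2, 4 and 2 with FSK, beside 7.2%, 34.5% and 21.1%. At 8 h Ex-4 in Med14 S983A, where limma, edgeR and DESeq2 called 0, 4 of the 5 had an unadjusted p under 0.05. These 4 also had an adjusted p under 0.05 and missed only the fold minimum. At 8 and 16 h FSK 21.1% to 34.8% of all genes were thus lower, and the median of all genes moved as well, by -0.34 and -0.20 in WT and by -0.28 and -0.10 in Med14 S983A (-0.32, 0.16, -0.36 and 0.12 in the same order with ERCC scaling). With each library centred on its median, 9 of the 20 calls were made.

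**Figure D3:**
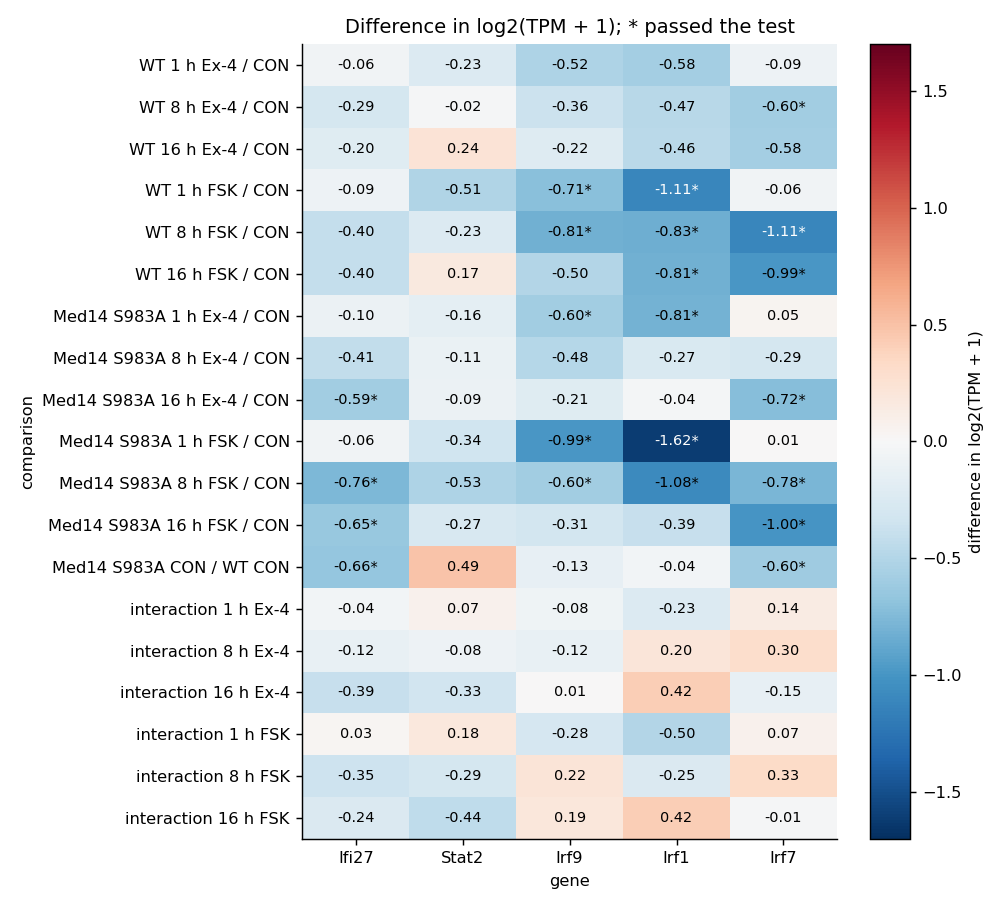
Difference in log2(TPM + 1) for the 5 tested genes in 19 comparisons, where blue is lower, red is higher and a star marks an adjusted p under 0.05 with a fold above 1.5. Stars in the treatment rows are all on negative values, and no interaction row has a star.

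At CON, 2 of the 5 were lower in Med14 S983A (Ifi27 and Irf7), beside 11.1% of all genes. For the interaction of treatment and genotype, limma called 0 of 5 in each of the 6 contrasts, beside 0.672%, 2.77% and 7.24% of all genes for Ex-4 and 1.64%, 13.9% and 17% for FSK at 1, 8 and 16 h. Of these 30 tests, 15 had an unadjusted p under 0.05, and edgeR and DESeq2 also called 0. In 11 of them the adjusted limma p was under 0.05 too, 3 higher and 8 lower, and only the fold minimum was missed. With ERCC scaling 3 were called, Ifi27 (-0.83) and Stat2 (-0.75) at 16 h Ex-4 and Irf1 (-0.76) at 1 h FSK. On that scale the median of all genes was below 0 too, at -0.33 for the 16 h Ex-4 interaction and -0.27 for 1 h FSK. On TPM these medians were 0.09 and -0.01. A different response of these 5 genes in the genotypes was therefore not called on TPM, although single contrasts were called in 1 genotype and not in the other. Between Ex-4 and FSK, the 2 calls were those of Irf1 in Med14 S983A at 1 and 8 h, beside 3.03% and 36.5% of all genes. There were 0 limma calls in Med14 S983A at 16 h (16.3% of all genes) and in WT at 1, 8 and 16 h (1.79%, 28.1% and 18.7%). In that order 3, 2, 5 and 4 of 5 had an unadjusted p under 0.05, and edgeR and DESeq2 called 0 there as well. Apart from Ifi27 in WT at 8 h (limma adjusted p = 0.0555), these also had an adjusted p under 0.05 and missed only the fold minimum.

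The wider interferon pathway was read from a list of 110 further symbols, of which 92 were in the table and 63 were tested. This list too was chosen with earlier results of these data known. The interferon genes themselves were at or near 0. Of 11 listed ligand genes 6 were in the table, among them Ifnb1 and Ifng, and none reached the minimum for testing. In WT at 16 h Ex-4, 1 of the 63 rose and 12 fell, beside 3.53% of all genes higher and 8.28% lower. At 16 h FSK 9 rose and 21 fell in WT (14.3% and 33.3%), beside 10.3% higher and 24.1% lower over all genes, and 8 rose and 14 fell in Med14 S983A (12.7% and 22.2%), beside 12.2% higher and 21.1% lower. At 8 h FSK 4 rose and 32 fell in WT (6.35% and 50.8%), beside 8.77% higher and 34.8% lower over all genes, and 5 rose and 32 fell in Med14 S983A (7.94% and 50.8%), beside 11.6% higher and 34.5% lower. At 16 h Ex-4 in Med14 S983A 4 rose and 13 fell (6.35% and 20.6%), beside 4.73% higher and 7.15% lower. These splits moved with the scaling. For WT 16 h FSK it was 10 higher and 11 lower with median centring and 12 and 8 on the ERCC scale, and for Med14 S983A 16 h FSK it was 13 and 10, and 14 and 8. For WT 16 h Ex-4 it was 2 and 4, and 3 and 3. Centring gave 11 and 20 for WT 8 h FSK, 9 and 22 for Med14 S983A 8 h FSK and 4 and 7 for Med14 S983A 16 h Ex-4. On the ERCC scale these last splits stayed near those on TPM, at 4 and 31, 4 and 34, and 4 and 15. The shares of all genes called under the other scalings are not given.

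The gene that rose in WT at 16 h Ex-4 was Sting1, the adaptor of cytosolic DNA sensing, from 38.7 to 106 TPM (1.44). The largest falls were those of the antiviral effectors Ifitm1 (-1.63), Oas1b (-1.06), Ifi47 (-0.87), Gbp2 (-0.83) and Parp9 (-0.71). Of these, Ifitm1, Oas1b and Gbp2 kept the call under every scaling, while Ifi47 lost it on the ERCC scale and Parp9 under both centring and ERCC scaling. At 16 h FSK in WT, Ifngr1, a chain of the interferon gamma receptor, rose from 59.4 to 244 TPM (2.02). Usp18 (1.13), the immunoproteasome subunit Psmb8 (0.94) and Stat3 (0.93) also rose. The chemokines Cxcl10 (-2.31) and Cxcl11 (-1.68), Ifitm1 (-1.72), Oas1b (-1.58) and Il10rb (-1.38) fell. The 23 tested antiviral effectors had a median of -0.70, with 2 higher and 13 lower. Over all genes the median was -0.20, with 10.3% higher and 24.1% lower. The split of the whole list in this contrast moved with the scaling, as given above, and the median of all genes was 0.16 on the ERCC scale.

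Untreated Med14 S983A cells differed from WT in 10 of the 63 genes, with 3 higher and 7 lower (4.76% and 11.1%), beside 8.29% of all genes higher and 11.1% lower, so the share lower was that of all genes. Usp18, the protease that removes ISG15 from proteins, was at 11.3 against 1.75 TPM (2.16), Ifitm1 at 17.3 against 5.43 TPM (1.52) and Mx2 at 3.85 against 1.40 TPM (1.01). Cxcl10 was at 3.09 against 10.3 TPM (-1.47), with Ifi47 (-1.41), Trim21 (-1.24), Cxcl11 (-1.18) and Rtp4 (-0.99) lower as well. Interferon-regulated genes thus stood both above and below WT at CON.

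For the interaction at 16 h, 4 genes were called higher and 2 lower with Ex-4 and 11 higher and 3 lower with FSK. In either direction these were 9.52% and 22.2% of the 63, near the 7.24% and 17% of all genes. Cxcl10 had the largest values at both agents (2.42 and 2.25). It went from 10.3 to 1.29 TPM with FSK in WT and from 3.09 to 2.93 TPM in Med14 S983A, and with Ex-4 it reached 14.2 TPM in Med14 S983A. Ifngr1 went from 36.7 to 54.0 TPM with FSK in Med14 S983A, and its interaction was -1.48. On the ERCC scale the Ex-4 split became 2 higher and 14 lower, and the FSK split 7 higher and 5 lower. The median of all genes on that scale was -0.33 for the Ex-4 interaction and -0.06 for the FSK interaction. With median centring the FSK split was 7 and 4.

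**Figure D4:**
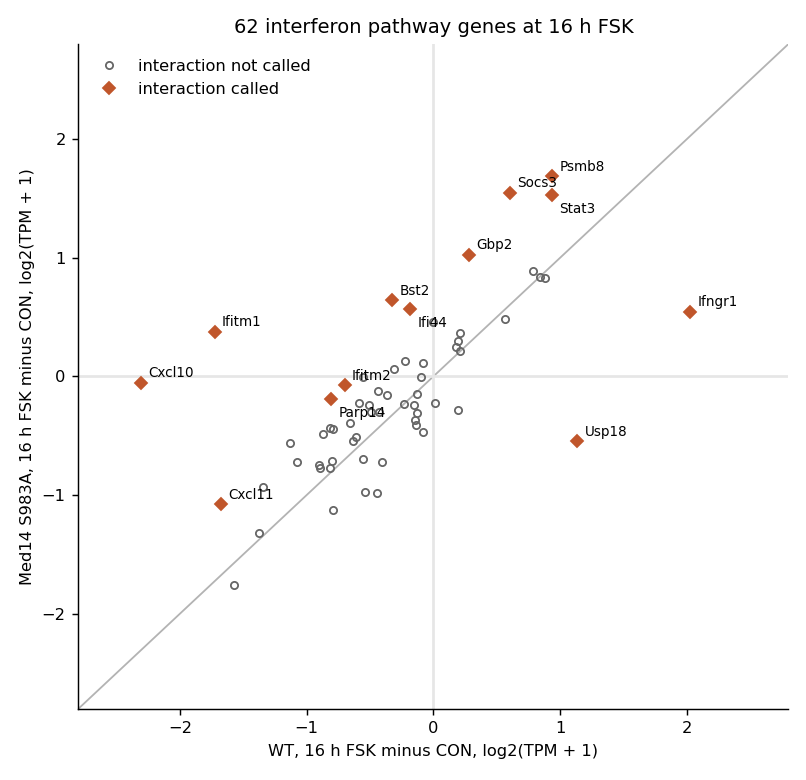
Difference from CON at 16 h FSK in log2(TPM + 1) for 62 of the tested interferon pathway genes, WT on the x axis and Med14 S983A on the y axis, with the line of equal change in grey. Diamonds are the 13 of them whose interaction was called, with Cxcl10 at -2.31 in WT and Usp18 at 1.13 in WT farthest from the line on either side.

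The genes whose pattern was most like that of Ifi27l2b were neither members nor in the pathway list. By Pearson r of log2(TPM + 1) over the 14 group means, they were Nampt (0.972), Ccdc47 (0.970), Nck2 (0.969), Stbd1 (0.967) and Tmbim6 (0.965). Stbd1 had group means from 5.07 to 72.0 TPM, and Nampt from 48.5 to 154 TPM. Over the 7 WT groups they were Rhbg, Bag1, Ghitm, Slc35a3 and Elk3 (r from 0.993 to 0.996), and over the 7 Med14 S983A groups Lrrc24, Timm8a1, Nme2, Znrd2 and Lonp1 (r from 0.995 to 0.998). Among the members, r over the 14 group means was -0.84 for Irf7, -0.57 for Ifi27, 0.14 for Stat2, 0.10 for Irf1 and 0.05 for Irf9. The points share libraries and scaling, and these genes were picked from 10275 for their likeness, so the values are descriptions.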

How the data were processed

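Bulk RNA was measured in 28 libraries. Per the labels, total RNA was made into directional libraries after ERCC spike-in. The authors aligned reads to rn6 with STAR 2.5.3a and deposited TPM per transcript from HOMER 4.11.1, with the exon Length of each transcript. They also deposited counts, which cover the 92 ERCC sequences alone. The study's own calls came from DESeq2 1.24.0 with size factors from the ERCC counts. The strand setting and the handling of multi-mapping reads are not given in the sources used here, so reads shared by Ifi27 family copies or by antisense transcripts are uncertain.

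One transcript per symbol was kept, the highest mean TPM, which gave 17455 symbols. The 10275 symbols with a mean of at least 1 TPM were tested on log2(TPM + 1) with limma 3.58.1 (R 4.3.3), all 28 libraries in 1 fit with a mean per group, trend and 14 residual degrees of freedom. Two-sided p-values received a Benjamini-Hochberg adjustment over the genes of each contrast, and a call needed an adjusted p under 0.05 and a fold above 1.5. Fold changes on this scale understate those of low genes. Multiplying TPM by length, with each library scaled to its ERCC counts, gave fragments. Of 137444 values under 1000 reads, 100% came out whole within 0.05 reads plus an allowance for the rounding of TPM. By chance it would be 23.1%, at 2 reads per fragment. As alternatives, edgeR 4.0.16 and DESeq2 1.42.0 were run on the fragments. On simulated data for Med14 S983A 16 h FSK against CON (10275 genes, 200 changed), limma recovered 94% of 2-fold and 98% of 3-fold changes with 1 wrong call at each fold. For edgeR it was 98% at both folds with 0 wrong calls. These sizes say nothing about changes near the 1.5-fold minimum.

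The members and the lists were chosen with earlier results of these data known. The genes named were all 7 members, up to 5 rises and 5 falls of the pathway list in WT at 16 h, at CON between genotypes and in the 16 h interactions, and the 5 tested genes most like Ifi27l2b. A gene that this rule picked is not reported here. Alternatives were the pseudocount, the filter, the sum of transcripts, median centring, ERCC scaling, a fit of the contrast's libraries only, a replicate block, leaving out each library, edgeR, DESeq2 and no fold minimum.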

Additional observations from a re-analysis of the deposited data

Results flagged for a closer look

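The interaction of treatment and genotype, which tests the difference between the response of Med14 S983A and that of WT, was called by limma for these genes of the interferon pathway at 16 h. With Ex-4 the difference of log2(TPM + 1) changes was 2.42 for Cxcl10, 1.02 for Gbp2, 0.75 for Cxcl11, 0.65 for Bst2, -0.64 for Sting1 and -0.71 for Usp18. With FSK the 5 highest were 2.25 for Cxcl10, 2.10 for Ifitm1, 0.96 for Bst2, 0.94 for Socs3 and 0.75 for Ifi44, and there were negative values of -1.48 for Ifngr1 and -1.68 for Usp18. Of these, the Ex-4 values of Bst2 (0.52 with median centring, 0.22 with ERCC scaling, 0.56 with edgeR and 0.55 with DESeq2) and Cxcl11 (0.36 with ERCC scaling) lost the call. The difference in the Ifi27l2b response was not tested.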

How the results depend on the processing

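The 5 tested members gave 20 calls against CON, 2 between genotypes at CON, 0 interactions and 2 between agents. Median centring gave 9, 0, 0 and 1, DESeq2 13, 3, 0 and 1, and no fold minimum 46, 3, 11 and 20. With ERCC scaling the genotype and interaction counts were 1 and 3, with edgeR the genotype count was 1, and with a pseudocount of 0.1 TPM the agent count was 4. The genotype calls of ERCC scaling and edgeR were Stat2, in the opposite direction to the 2 main calls. Leaving out a library gave 17 to 22 calls against CON, 1 to 2 between genotypes, 0 interactions and 2 to 3 between agents. Of the 24 member calls, 14 ended with median centring and 5 when some library was left out. The pathway list gave 187 calls against CON, 10 between genotypes and 36 interactions. Without a fold minimum these were 498, 35 and 109, and with a mean of at least 5 TPM 118 and 5 for the first 2, where fewer genes were tested. The interaction split of 22 higher and 14 lower became 17 and 18 with centring and 15 and 34 with ERCC scaling. Leaving out a library gave 183 to 190, 10 to 11 and 32 to 37 calls. The Ifi27l2b mean in Med14 S983A at 16 h FSK was 596 TPM with ERCC scaling and 471 to 502 TPM without 1 of its libraries. Of 36 named pathway values, 4 lost the call in a setting other than leaving out a library and 2 when 1 was left out, and none changed sign. The 2 were the 16 h Ex-4 interactions of Bst2 (0.56 without WT CON replicate 2, 0.57 without Med14 S983A CON replicate 1) and Sting1 (-0.56 without WT CON replicate 2). Where no construction shows it, the cause was not tested. The labels do not pair the replicate numbers. Over 19 group pairs, r of the deviations ran from -0.24 to 0.24, with 3 over 0.1. The replicate block gave 20 calls against CON, 2 between genotypes, 0 interactions and 2 between agents, and 35 pathway interactions. Low counts limit Isg15, at 0 to 16 fragments per library.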
